A study of Mus musculus with 10 samples.

Results

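This report describes 7 genes of the major histocompatibility complex (MHC) class II route in mouse ileal crypts: H2-Aa, H2-Ab1, H2-Eb1, H2-DMa, H2-DMb1, Cd74 and Ciita. They were chosen by name, and each was found by its Ensembl ID among the 28987 IDs measured in every library. Bulk RNA sequencing of total RNA covered 10 libraries. The 5 OE libraries carry the label VilCreER;icS5 (STAT5IEC+++) and are described as overexpressing Stat5. The 2 KO libraries are labelled VilCreER;Stat5 (STAT5IEC-/-), a loss of Stat5 from intestinal epithelial cells. The 3 Ctrl libraries are labelled VilCreER;Stat5 (STAT5+/+). VilCreER is a Cre recombinase under the villin promoter, which is active in intestinal epithelium, so all 3 groups carry the same driver, and lymphocytes and other non-epithelial cells lie outside its reach. The labels do not spell out icS5 or state how Cre was induced, and no Cre control of the icS5 line is analysed here. Every mouse is labelled C57Bl6, male and 12 weeks old. Crypts, the pits of the gut lining that hold stem, dividing and Paneth cells, were released by incubation for 30 min at 37 C in PBS that held 10 mM EDTA. It is not stated whether the libraries of a group are different mice, and the p-values given cover only the variation seen among them, which may be technical.

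MHC class II molecules are pairs of an alpha and a beta chain that carry peptides from endocytosed proteins to the cell surface, where CD4 T cells read them. The invariant chain CD74 fills the peptide groove during transport and guides the pair to the endosome. There it is cut down to a short peptide, which the DM heterodimer exchanges for antigen. CIITA is the coactivator that switches on the genes of this route, and it does so through factors bound to a shared set of promoter boxes. Dendritic cells, B cells and macrophages express class II constantly, and the epithelium of the small intestine, its stem cells among them, expresses it under the influence of microbes and interferon gamma.

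Shapes like the promoter boxes that CIITA works through were found in the reference sequence of 3 of these genes. A table of RefSeq promoters (GRCm38.p6, 250 bases before to 50 bases after the gene start) held 4 of the 7 members, H2-Aa, H2-Eb1, H2-DMa and H2-DMb1. An X box shape (GNAACNNTGANG or GNAACNNNTGANG, read along the gene's strand) and a Y box shape (ATTGG, with CCAAT as its form on the other strand) were searched. Their letters were set after these promoters had been read. An X shape with ATTGG 10 to 30 bases after it was found in H2-Aa, H2-Eb1 and H2-DMb1, and in neither window of H2-DMa. In H2-Aa the X shape began 81 bases before the RefSeq gene start and was followed by the Y shape after 21 bases. In H2-Eb1 these distances were 91 and 19 bases, and in H2-DMb1 they were 94 and 20 bases. The GENCODE gene model of H2-DMb1 starts farther upstream than the RefSeq one, so there the X shape lies in an annotated exon. Over all 32851 promoters of the table, 1.81% held the X shape, 37.4% held the Y shape and 0.0822%, or 27 promoters of 26 genes, held both in this order. Of those 26 genes 4 were class II genes, the fourth being H2-Ob. Since the letters were set after the members' promoters had been read, matches in class II genes were favoured in advance. The count is thus no measure of how specific the shapes are. The stretches are shown because they are the element that 3 of the members have in common, with the X and Y shapes in capitals. The first lies on the minus strand at chr17:34287852-34287919, the second on the plus strand at chr17:34305761-34305827 and the third on the plus strand at chr17:34153089-34153117. For H2-DMb1 only the X shape and its flanks are given.
H2-Aa: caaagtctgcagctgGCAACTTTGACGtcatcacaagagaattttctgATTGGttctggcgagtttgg
H2-Eb1: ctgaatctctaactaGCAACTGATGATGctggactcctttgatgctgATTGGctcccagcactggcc
H2-DMb1: tttacctaGTAACTGATGATGctaggctg
A match describes letters only, and no binding was measured here.

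Several libraries stand apart or go against their labels. In the library labelled OE 1, Stat5a stood at 1.56 and Stat5b at 1.49 scaled TPM, inside the Ctrl range for both genes, whereas every other OE library exceeded every Ctrl library for Stat5b. Ctrl 2 drew 83.7% of its TPM from mitochondrial transcripts, against 43.3% to 57.0% in the other libraries, and its scaling factor was 0.295 against 0.831 to 1.31. OE 3, OE 4 and Ctrl 3 summed to 0.250, 0.140 and 3.45 deposited TPM over 4 Y-linked genes, where the other libraries reached 32.3 to 131. OE 2 and OE 3 contained transcripts of a class II gene that C57BL/6 mice are known not to express, described with the E chains. Values are TPM, a length-corrected share of all transcripts, and they hold no read numbers, so depth is unknown. They were divided by median-ratio factors to give scaled TPM.

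The 7 genes together made up 0.345% to 0.900% of nuclear-encoded TPM in the OE libraries, 0.274% and 0.622% in the KO libraries and 0.308% to 0.517% in the Ctrl libraries. On the scaled TPM scale their mean levels over all libraries ran in the order H2-Ab1 (870), H2-Aa (559), Cd74 (470.3), H2-Eb1 (76.9), H2-DMa (29.3), H2-DMb1 (11.9) and Ciita (4.98). H2-Ab1 was above H2-Aa in all 10 libraries, by a factor of 1.28 to 1.93. H2-Aa and Cd74 did not hold a fixed order, with Cd74 above H2-Aa in 5 of 10 libraries. The other neighbours kept their order in every library. In bulk RNA, fewer cells of a type and less RNA per cell cannot be told apart.

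H2-Aa (ENSMUSG00000036594, mm10 chromosome 17, 34282744 to 34287823, minus strand) and H2-Ab1 (ENSMUSG00000073421, chromosome 17, 34257689 to 34269419, plus strand) encode the alpha and beta chains of the A molecule, the main class II molecule of this strain. H2-Aa was at 1333, 391, 274, 291 and 737 scaled TPM in OE 1 to 5, at 295 and 841 in KO 1 and KO 2, and at 703, 389 and 333 in Ctrl 1 to 3. H2-Ab1 was at 2232, 573, 483, 499 and 1032 scaled TPM in OE 1 to 5, at 475 and 1222 in KO 1 and KO 2, and at 902, 751 and 529 in Ctrl 1 to 3. For both genes the library labelled OE 1 was the highest, KO 2 the second and OE 5 the third, and OE 3, OE 4 and KO 1 were the 3 lowest. The OE and KO groups thus held both the highest and the lowest libraries, the Ctrl libraries lay between them, and the groups overlapped in all 3 comparisons. For H2-Aa the 5 OE libraries averaged 605 ± 448 scaled TPM, the 2 KO libraries 568 ± 386 and the 3 Ctrl libraries 475 ± 199.5 (mean ± SD). For H2-Ab1 the OE mean was 964 ± 744, the KO mean 849 ± 528 and the Ctrl mean 727 ± 188. The differences between means were smaller than the SD within the OE and KO groups.

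**Figure D1:**
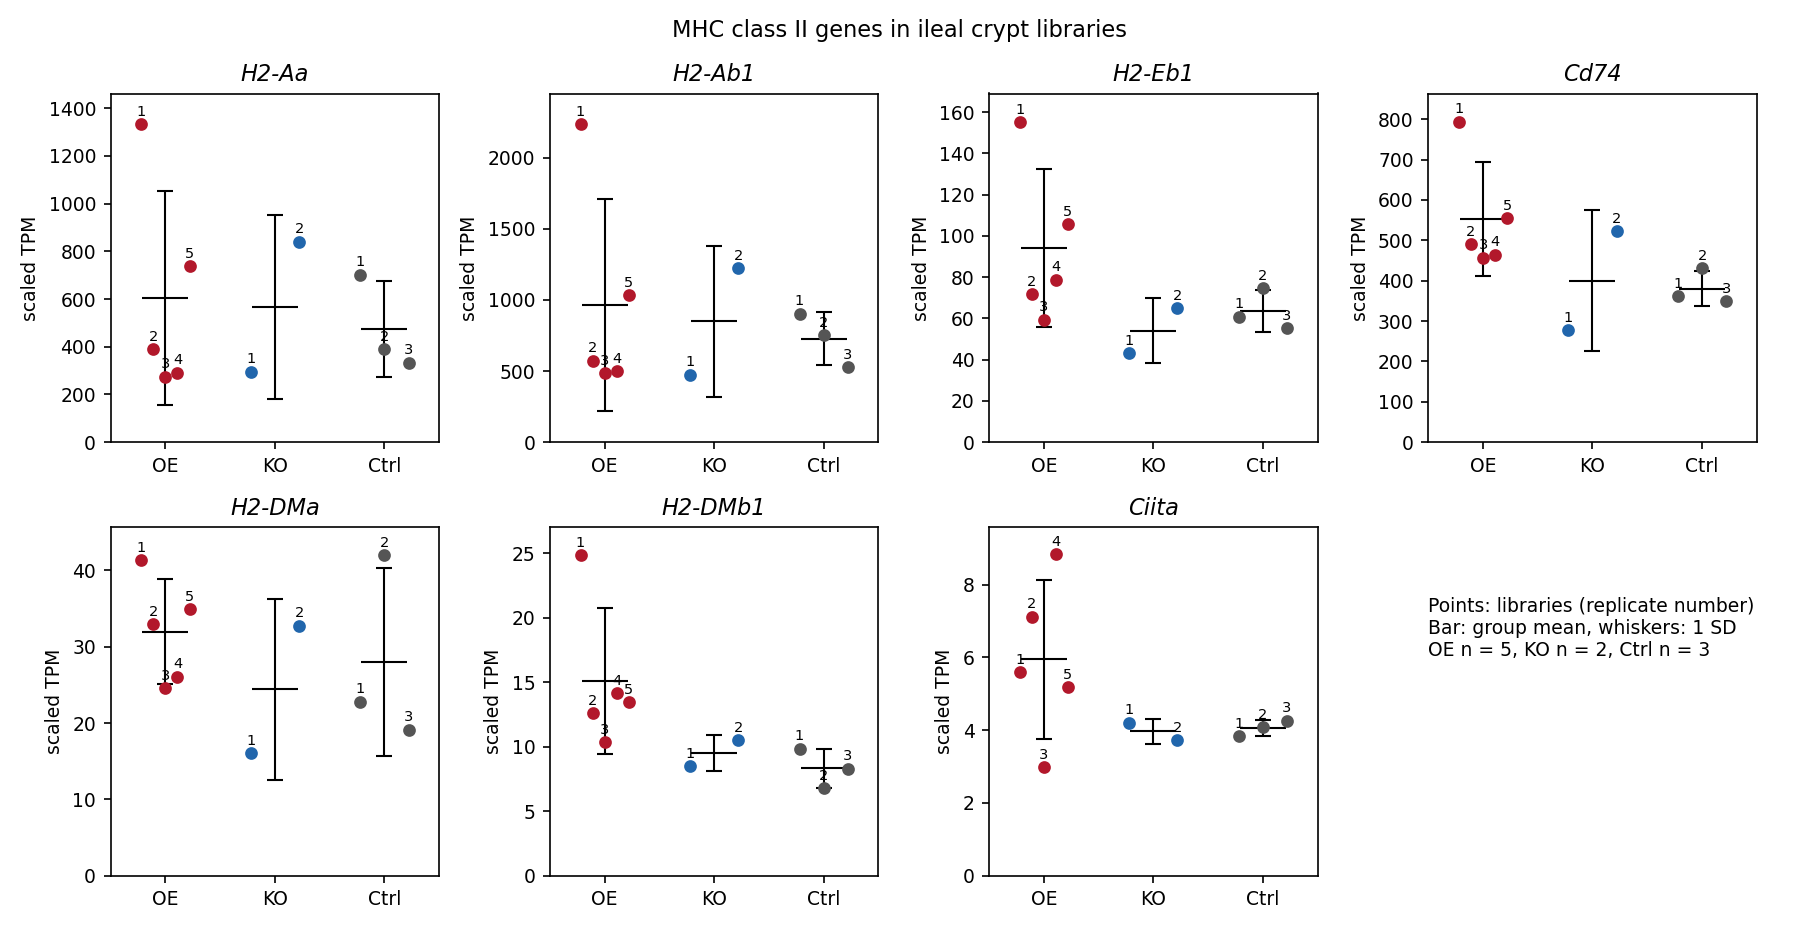
Scaled TPM of the 7 genes, one panel a gene, with each point a library, OE left of KO and KO left of Ctrl, and a bar at the group mean. The library labelled OE 1 is highest in 5 panels, at 2232 scaled TPM for H2-Ab1, while Ctrl 2 leads for H2-DMa and OE 4 leads for Ciita.

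H2-Eb1 (ENSMUSG00000060586, chromosome 17, 34305867 to 34316674, plus strand) encodes the beta chain of the E molecule. It was at 155, 71.8, 59.3, 78.8 and 106 scaled TPM in OE 1 to 5, at 43.0 and 65.1 in KO 1 and KO 2, and at 60.8, 74.7 and 55.1 in Ctrl 1 to 3. KO 1 was the lowest library and the library labelled OE 1 the highest, and the groups overlapped in every comparison. In values as deposited, all 5 OE libraries were above both KO libraries, at 69.5 to 129 against 52.0 and 68.2 TPM. H2-Eb1 overlaps Gm20513 on the opposite strand, and since strandedness of the libraries is not given in the sources used here, reads of both cannot be told apart.

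The partner of H2-Eb1, the E alpha chain, split the libraries sharply. H2-Ea-ps (ENSMUSG00000036322, chromosome 17, 34341959 to 34344645, minus strand) is annotated as a polymorphic pseudogene, and the b haplotype of C57BL/6 carries a deletion that silences it, whereas several other mouse haplotypes express it. It reached 92.5 and 69.8 scaled TPM in OE 2 and OE 3. OE 1, 4 and 5, both KO libraries and Ctrl 1 and 2 listed it at 0, and Ctrl 3 at 0.0766. In OE 2 and OE 3 it reached 1.29 and 1.18 times the level of H2-Eb1 and 23.7% and 25.5% of the level of H2-Aa. The signal thus split the OE group, and it goes against the strain label of these libraries. Whether reads of another haplotype would be counted in full for H2-Aa, H2-Ab1 and H2-Eb1 was not tested. For H2-Eb1 itself, OE 2 and OE 3 had ranks 5 and 8 of 10 libraries, counted from the highest.

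**Figure D2:**
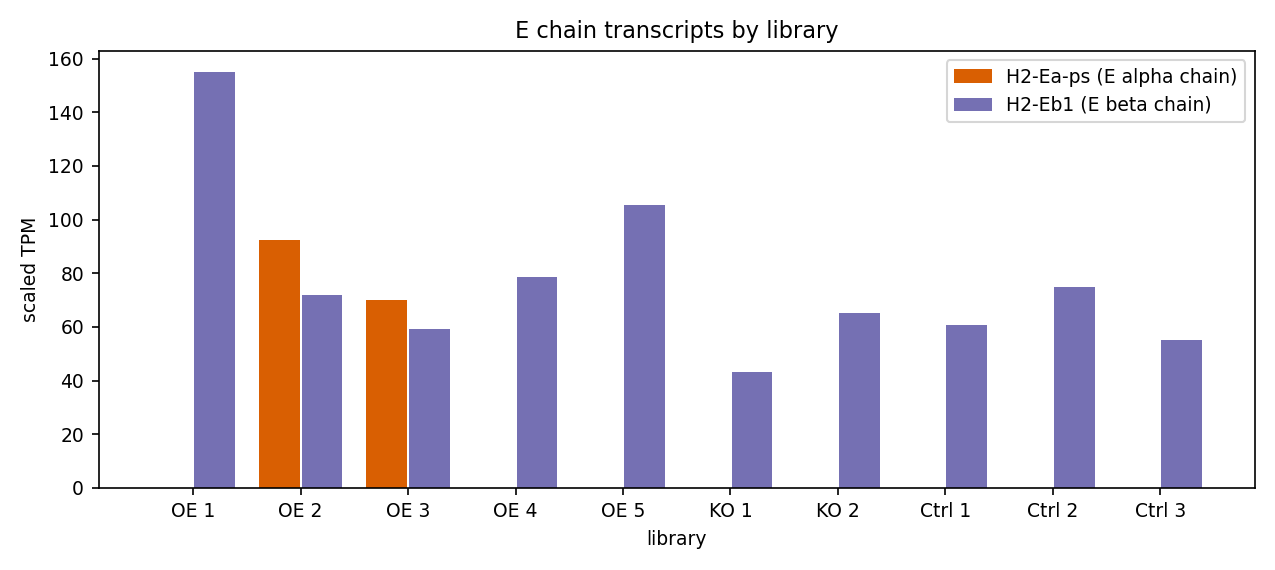
Scaled TPM of H2-Ea-ps (orange) and H2-Eb1 (purple) in each library, with bars from 0. H2-Ea-ps is seen in OE 2 and OE 3, at 92.5 and 69.8, while H2-Eb1 is present in all libraries at 43.0 to 155.

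Cd74 (ENSMUSG00000024610, chromosome 18, 60803848 to 60812652, plus strand), the invariant chain, was at 794, 490.4, 457, 464 and 555 scaled TPM in OE 1 to 5, at 277 and 523 in KO 1 and KO 2, and at 362, 431 and 349 in Ctrl 1 to 3. All 5 OE libraries were above all 3 Ctrl libraries, and the gap was narrow, with 457 in OE 3 against 431 in Ctrl 2. The KO libraries lay on either side of the Ctrl range. The OE mean was 552 ± 141, the KO mean 400.3 ± 174 and the Ctrl mean 380.4 ± 43.9 (SD over 5, 2 and 3 libraries). Across libraries Cd74 varied less than the A chains did, with a ratio of 2.86 between highest and lowest, against 4.86 for H2-Aa and 4.70 for H2-Ab1.

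H2-DMa (ENSMUSG00000037649, chromosome 17, 34119541 to 34139101, plus strand) and H2-DMb1 (ENSMUSG00000079547, chromosome 17, 34153072 to 34160230, plus strand) encode the chains of DM, the peptide exchanger. H2-DMa was at 41.3, 32.9, 24.5, 26.1 and 35.0 scaled TPM in OE 1 to 5, at 16.0 and 32.8 in KO 1 and KO 2, and at 22.8, 42.0 and 19.1 in Ctrl 1 to 3. H2-DMb1 was at 24.9, 12.6, 10.4, 14.1 and 13.4 in OE 1 to 5, at 8.52 and 10.5 in KO 1 and KO 2, and at 9.87, 6.81 and 8.29 in Ctrl 1 to 3. For H2-DMb1 all 5 OE libraries were again above all 3 Ctrl libraries, with 10.4 in OE 3 next to 9.87 in Ctrl 1. For H2-DMa the highest of all libraries was Ctrl 2, which was the lowest of all for H2-DMb1, and the groups overlapped. In scaled TPM the overlap of OE with Ctrl came from Ctrl 2 alone, the library with 83.7% mitochondrial TPM. All 5 OE libraries were above Ctrl 1 and Ctrl 3. As deposited, H2-DMa was at 28.7 to 43.0 TPM in OE and at 12.4 to 27.8 in Ctrl, without overlap, so the place of Ctrl 2 depends on the scaling. H2-DMb1 has a closely related neighbour, H2-DMb2, and H2-DMa overlaps Brd2 and other annotated genes, so the split of reads is uncertain for both.

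Ciita (ENSMUSG00000022504, chromosome 16, 10480059 to 10528418, plus strand), the coactivator, was the lowest of the members. It was at 5.60, 7.12, 2.98, 8.83 and 5.18 scaled TPM in OE 1 to 5, at 4.20 and 3.72 in KO 1 and KO 2, and at 3.83, 4.09 and 4.26 in Ctrl 1 to 3. The OE group held 4 libraries above every KO and Ctrl library and 1, OE 3, below them all. This pattern depends on the scaling. As deposited, OE 1 was at 4.65 TPM, below KO 1 at 5.08 and Ctrl 3 at 5.56. OE 3, at 3.50 deposited TPM, was above Ctrl 2 at 1.20. In scaled TPM the library highest for Ciita, OE 4, was the second lowest of all libraries for H2-Aa and the third lowest for H2-Ab1. The OE mean was 5.94 ± 2.19, the KO mean 3.96 ± 0.339 and the Ctrl mean 4.06 ± 0.221 (SD). Ciita overlaps Dexi on the opposite strand.

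Loss of Stat5 was examined by comparing KO with Ctrl libraries. The members stood on both sides of 0, with 4 of 7 higher in KO, where 53% of all 13056 genes tested had a positive difference. Their median difference was 0.0085 on the log2(scaled TPM + 1) scale, against 0.038 over all genes. The differences ran from -0.25 for H2-Eb1 (95% interval -1.12 to 0.63) to 0.18 for H2-DMb1 (-0.59 to 0.95). For H2-Aa the difference was 0.15 and its interval ran from -1.43 to 1.73, and for Cd74 it was 0.0085 with an interval from -0.80 to 0.82. No member passed (limma, Benjamini-Hochberg adjusted p = 0.948 to 1), and 0% of all genes did. At an unadjusted p under 0.05 there was also no member, where 3.46% of all genes were under it, and no member separated the groups, where 9.09% of genes were higher and 7.27% lower without overlap. The sign of the members hung on the KO library kept: without KO 1, 6 of 7 were higher, with a median of 0.32, and without KO 2, 2 of 7 were higher, with a median of -0.54. As deposited, all 7 were higher in KO, with a median of 0.54, where the median of all genes was itself 0.38.

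Overexpression was examined by comparing OE with Ctrl libraries. All 7 members had a positive difference, with a median of 0.39 on the log2(scaled TPM + 1) scale, against 0.021 over all genes, of which 52.1% were positive. H2-DMb1 had the largest, 0.74 (95% interval 0.12 to 1.36), followed by Cd74 at 0.51 (-0.14 to 1.16), H2-Eb1 at 0.49 (-0.21 to 1.19) and Ciita at 0.39 (-0.25 to 1.04). The DM alpha chain H2-DMa stood at 0.24 (-0.47 to 0.95), H2-Ab1 at 0.16 (-1.04 to 1.36) and H2-Aa at 0.15 (-1.12 to 1.41). H2-DMb1 alone of the members was under an unadjusted p of 0.05 in limma, where 6.1% of all genes were. No member passed in limma (Benjamini-Hochberg adjusted p = 0.755 for H2-DMb1 and Cd74 and 0.759 to 0.961 for the others), and 0% of all genes did. Without overlap between the groups, 2 of 7 members were higher in OE, H2-DMb1 and Cd74, and none was lower, where 2.21% of all genes were higher and 1.52% lower. Deposited values separated H2-DMb1, Cd74 and also H2-DMa, and the share of all genes without overlap on the deposited scale is not given. On that scale the 7 members had a median of 0.74, with 1.13 for H2-DMb1 and 1.02 for Cd74, and all genes had one of 0.36. The summed level of 10 B cell markers was likewise higher in most OE libraries, at 6.28 to 119 scaled TPM in OE and 0.870 to 7.31 in Ctrl. The median difference of 9 crypt cell markers was 0.67, and their sum was lowest in Ctrl 2, at 291 scaled TPM. The part of B cells and crypt cells in the members' differences was not tested.

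The signs in OE against Ctrl did not all hold when single libraries were left out. Without the library labelled OE 1, whose Stat5 transcripts lay in the Ctrl range, 5 of 7 members were positive with a median of 0.29, and H2-Aa and H2-Ab1 both turned to -0.21. Without Ctrl 3 they turned to -0.07 and -0.05. Leaving out Ctrl 2, the library highest in mitochondrial transcripts, kept all 7 positive with a median of 0.56, against 0.39 with all libraries. Each of the remaining libraries, left out alone, also kept all 7 positive, with medians of 0.32 to 0.57. H2-DMb1 and Cd74 remained positive whichever library was left out, at 0.55 to 0.86 for H2-DMb1 and at 0.37 to 0.60 for Cd74. Without OE 2 and OE 3, the libraries with H2-Ea-ps, all 7 were positive with a median of 0.56. Without OE 3, OE 4 and Ctrl 3, the libraries low in Y-linked transcripts, all 7 were positive with a median of 0.48.

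OE against KO compared the groups at either end of the Stat5 range. In this comparison 6 of 7 members were positive, with a median of 0.43 on the log2(scaled TPM + 1) scale, where 49.9% of all genes were positive and their median was -0.00062. H2-Eb1 differed by 0.74 (95% interval -0.065 to 1.54), H2-DMb1 by 0.56 (-0.15 to 1.27) and Cd74 by 0.50 (-0.24 to 1.24), whereas H2-Aa stood at -0.00065 (-1.45 to 1.45). No member passed (limma, Benjamini-Hochberg adjusted p = 1 for each), 0% of all genes did, and no member was under an unadjusted p of 0.05, where 2.95% of genes were. In scaled TPM no member separated the groups, where 4.04% of genes were higher and 4.43% lower without overlap. As deposited, H2-Eb1 and H2-DMb1 did, with H2-DMb1 at 12.1 to 20.7 TPM in OE and at 10.3 and 11.01 in KO. The share of all genes without overlap in deposited values is not given, so these separations cannot be weighed against it. Without KO 1, 4 of 7 members were positive with a median of 0.046, and without KO 2 all 7 were, with a median of 0.75. The 3 comparisons share libraries with each other, so their directions are not independent.

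**Figure D3:**
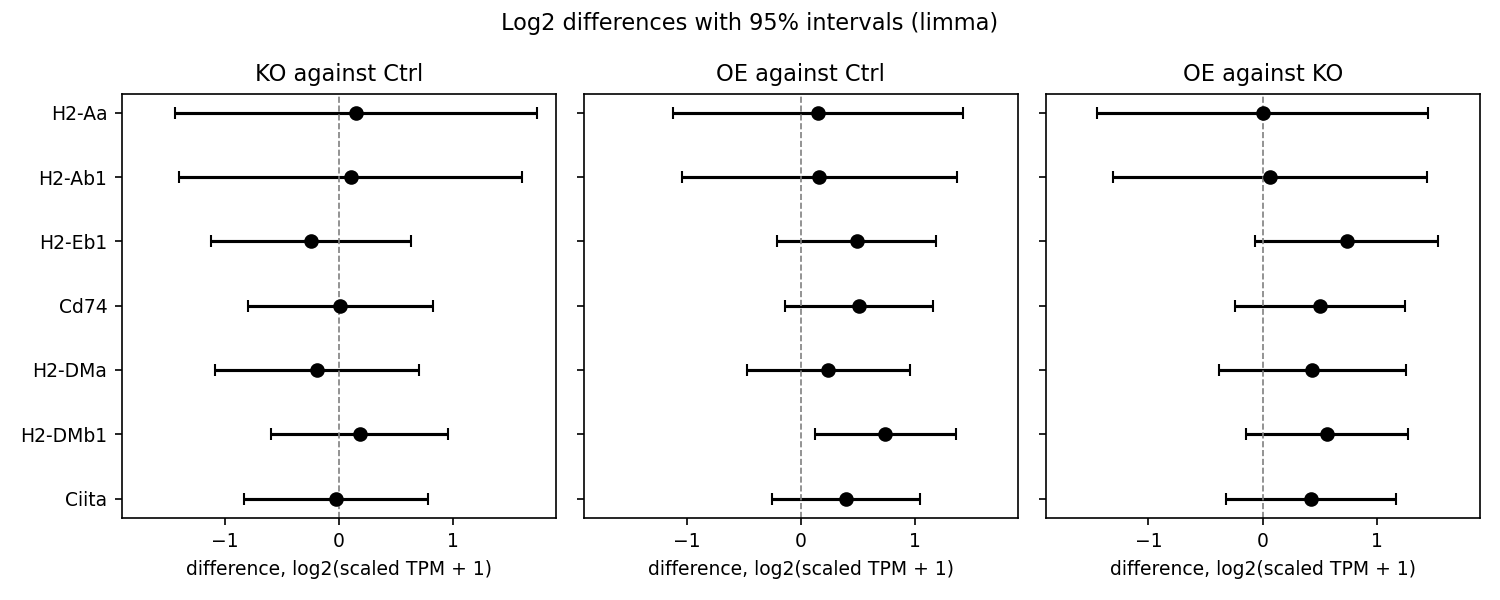
Difference of each member on the log2(scaled TPM + 1) scale, with 95% intervals from limma, one panel a comparison. The intervals of all members include 0 except that of H2-DMb1 in OE against Ctrl, which runs from 0.12 to 1.36.

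Across the 10 libraries, 3 of the 6 other members varied with H2-Ab1 by Pearson r, of which H2-Aa alone also passed by Spearman rho, and the correlation of Ciita was near 0. On the log2(scaled TPM + 1) scale, H2-Aa followed H2-Ab1 with a Pearson r of 0.976 and a Spearman rho of 0.952. The permutation p was 1e-05 for r, the smallest that 100000 resamples can give, and 6e-05 after Benjamini-Hochberg adjustment over 6 relations, with an adjusted permutation p of 0.0006 for rho. H2-Eb1 had r = 0.766 with H2-Ab1 (permutation p = 0.0113, adjusted 0.0266) and rho = 0.648 (permutation p = 0.0492, adjusted 0.0738). Cd74 had r = 0.748 (permutation p = 0.0133, adjusted 0.0266) and rho = 0.709 (permutation p = 0.0264, adjusted 0.0738). For H2-DMa r was 0.655 and for H2-DMb1 it was 0.617, with adjusted permutation p of 0.0566 and 0.0725. Ciita, the coactivator of all of them, had r = -0.024 and rho = 0.030 with H2-Ab1 (permutation p = 0.948 and 0.945).

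The correlations were lower without the libraries at the top. Without the library labelled OE 1 and KO 2, the farthest from the median of H2-Ab1, r was 0.956 for H2-Aa, 0.621 for H2-Eb1, 0.535 for H2-DMa, 0.372 for Cd74, 0.074 for H2-DMb1 and -0.104 for Ciita. The r of the A chains thus stayed high, and those of Cd74 and H2-DMb1 fell the most. These libraries were picked by their H2-Ab1 level, so leaving them out narrows its range, which by itself lowers r. The falls therefore cannot show that a relation rested on these libraries. No group holds 6 libraries, so no value within a group is given.

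The genes whose pattern was most like that of the members were sought among protein-coding genes with a mean of at least 5 scaled TPM. The measure was Pearson r over the 10 libraries with the mean standardised level of the 7 members. The 5 highest were Jund, a subunit of the AP-1 transcription factor (r = 0.886, rho = 0.879), Trim15, a tripartite motif protein (r = 0.878, rho = 0.782), and Irf3, a transcription factor of the interferon response (r = 0.872, rho = 0.867). Next were Trappc4, a subunit of a vesicle tethering complex (r = 0.858, rho = 0.782), and Psmb10, a catalytic subunit of the immunoproteasome (r = 0.856, rho = 0.842). All 5 were highest in the library labelled OE 1, at 71.1 scaled TPM for Psmb10 against 36.9 to 61.7 in the others, and these values carry no test.

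Other class II genes of the locus were expressed at low levels. H2-Oa and H2-Ob encode the chains of DO, an inhibitor of DM that is known from B cells. H2-Ob was at 4.16, 1.43, 2.40, 21.5 and 5.19 scaled TPM in OE 1 to 5, at 3.81 and 1.97 in KO 1 and KO 2, and at 1.38 in Ctrl 1, with Ctrl 2 and Ctrl 3 listed at 0. H2-Oa was at 2.82, 0.730, 0.887, 7.17 and 2.23 in OE 1 to 5, at 2.02 and 0.873 in KO 1 and KO 2, and at 0.379, 0 and 0.0419 in Ctrl 1 to 3. OE 4 stood far above all others for both genes, and every OE and every KO library was above every Ctrl library. H2-Eb2, a beta chain gene of the E family, was separated in the same way but barely, with 0.192 in OE 2 next to 0.190 in Ctrl 1.

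The log2 differences of H2-Ob, H2-Oa and H2-Eb2 were 2.09, 1.50 and 1.19 in OE against Ctrl and 1.50, 1.08 and 1.06 in KO against Ctrl, and these comparisons share the Ctrl libraries. None passed (limma, adjusted p = 0.755 in OE against Ctrl and 0.943 in KO against Ctrl). The second DM beta gene, H2-DMb2, was at 1.62 to 4.57 scaled TPM in OE, at 2.01 and 2.52 in KO and at 0.344 to 2.69 in Ctrl, with overlap. Of these 5 genes beside the members, H2-Ea-ps included, 3 were higher without overlap in OE against Ctrl, where 2.21% of all genes were, and 3 in KO against Ctrl, where 9.09% were. H2-Oa, H2-Eb2 and H2-Ea-ps were under 1 deposited TPM in every Ctrl library, so they passed the filter through OE or KO libraries alone. A level above Ctrl was thus favoured in advance, and these counts are no support for a difference.

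B cell markers ordered the libraries much as H2-Ob did. The summed level of 10 B cell markers was 38.7, 6.28, 18.4, 119 and 33.5 scaled TPM in OE 1 to 5, 29.1 and 11.7 in KO 1 and KO 2, and 7.31, 0.870 and 0.925 in Ctrl 1 to 3. All 10 markers had a positive difference in OE against Ctrl, with a median of 1.49 on the log2(scaled TPM + 1) scale, and all 10 in KO against Ctrl, with a median of 1.03. None passed in limma. An unadjusted p under 0.05 was reached by 9 of them in OE against Ctrl, where 6.1% of all genes reached it, and by 2 in KO against Ctrl, where 3.46% did. Pax5, Cd22, Cr2, Fcer2a and Blk were under 1 deposited TPM in every Ctrl library, so they passed the filter through OE or KO libraries alone. For these a positive difference was favoured in advance, so the counts cannot be weighed against the shares of all genes. Cd79a, a chain of the B cell receptor complex, was at 0.742 to 8.52 scaled TPM in OE, at 0.0974 and 4.40 in KO and at 0 to 0.834 in Ctrl. Ms4a1, which encodes CD20, was at 0.622 to 33.5 in OE, at 5.21 and 6.67 in KO and at 0 to 1.65 in Ctrl. Cd79a was listed at 0 in Ctrl 2 and Ctrl 3.

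The A chain genes ordered the libraries differently, while H2-DMb1 and Ciita were high where the B cell sum was highest. OE 4, with the highest B cell sum, had rank 8 of 10 for H2-Ab1, rank 5 for Cd74, rank 2 for H2-DMb1 and rank 1 for Ciita, counted from the highest. OE 2, with a B cell sum of 6.28, and Ctrl 1, with 7.31, had 490.4 and 362 scaled TPM of Cd74, 12.6 and 9.87 of H2-DMb1 and 7.12 and 3.83 of Ciita. Without OE 4 the difference in OE against Ctrl was 0.56 for Cd74 and 0.75 for H2-DMb1. OE 2 and Ctrl 1 are 1 library of each group, and the part of B cells in the members' levels was not tested.

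**Figure D4:**
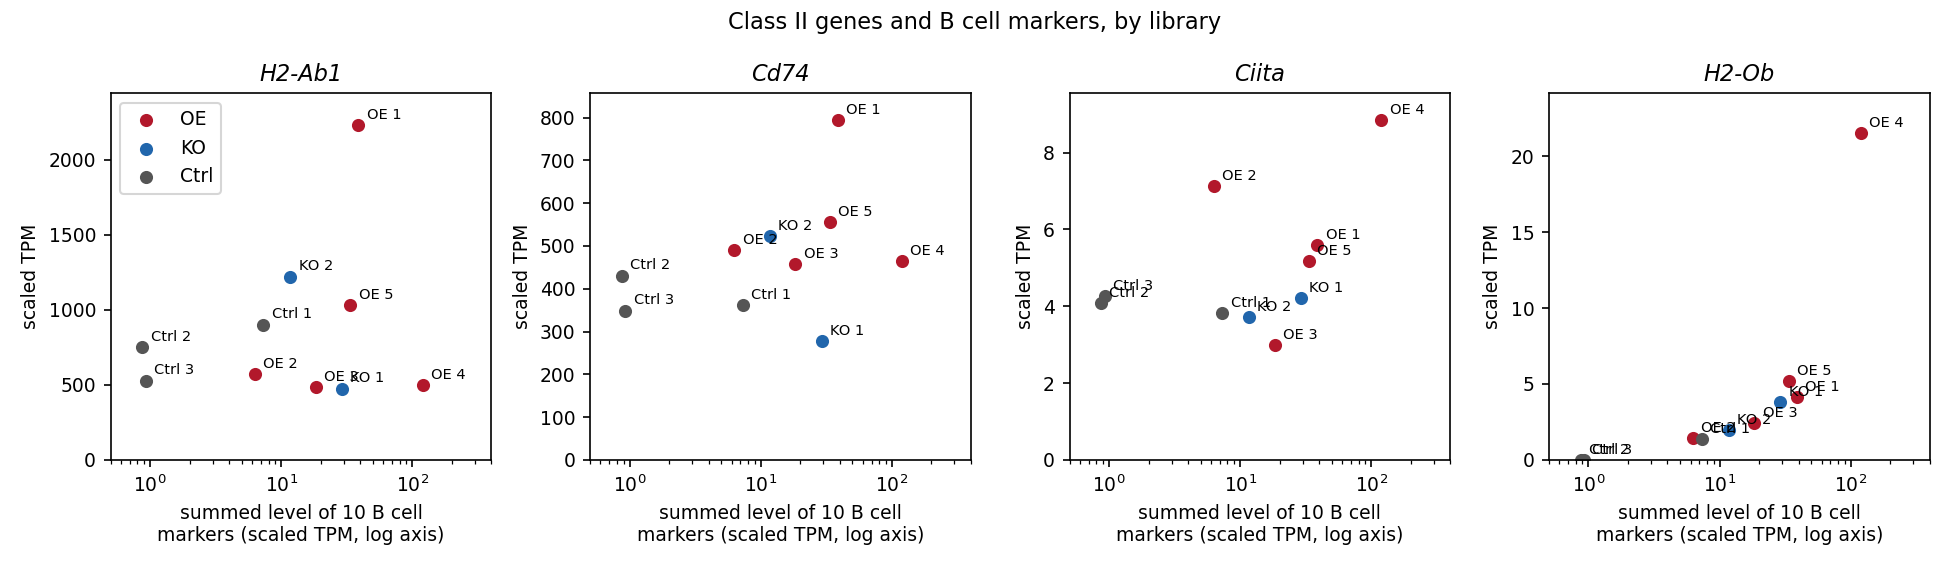
Scaled TPM of H2-Ab1, Cd74, Ciita and H2-Ob against the summed level of 10 B cell markers (log axis), with each point a library. H2-Ob climbs with the sum to 21.5 in OE 4, where the sum is 119, while H2-Ab1 is at 499 in that library and at 2232 in the library labelled OE 1, where the sum is 38.7.

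Apart from Lyz2, markers of the other class II positive cells were low. Of 16 markers of dendritic cells and macrophages, 7 passed the filter on low values, all with a positive difference in KO against Ctrl and in OE against Ctrl. Of these, Itgax, Csf1r, C1qa and C1qb were under 1 deposited TPM in every Ctrl library. They passed through OE or KO libraries alone, which favoured a positive difference. All 16 summed to 16.0 to 212 scaled TPM in OE, 116 and 188 in KO and 6.33 to 20.5 in Ctrl. Most of this was Lyz2, a lysozyme gene that shares sequence with the Paneth cell gene Lyz1, at 11.6 to 193 in OE, 104 and 171 in KO and 2.39 to 10.7 in Ctrl, without overlap between either group and Ctrl. Its log2 difference was 2.61 in OE against Ctrl and 4.13 in KO against Ctrl (limma, adjusted p = 0.755 and 0.943). Without Lyz2 the sum was 4.41 to 19.2 in OE, 12.3 and 17.4 in KO and 3.94 to 10.2 in Ctrl. The next most abundant, Itgam, Csf1r and C1qb, reached 8.83, 2.93 and 2.73 at most. Itgax, which encodes CD11c, was at 0 to 1.33 in OE, at 0.531 and 0.761 in KO and at 0 to 0.582 in Ctrl. Flt3, a receptor of dendritic cell development, was listed at 0 in all 3 Ctrl libraries and in KO 2 and reached 1.12 in OE 4, and Zbtb46, a dendritic cell transcription factor, was at 0.0762 to 0.740 in OE, at 0.349 and 0.830 in KO and at 0 to 0.168 in Ctrl. KO 1, with a sum of 17.4 without Lyz2 and 188 with it, was the lowest library for H2-Ab1, H2-Eb1, H2-DMa and Cd74. The library labelled OE 1 had the highest sums, 19.2 without Lyz2 and 212 with it. It was the highest library for H2-Aa, H2-Ab1, H2-Eb1, H2-DMb1 and Cd74. The part of these cells in the members' levels was not tested.

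Markers of T cells and innate lymphoid cells, led by Gzma, Gzmb and Cd3e, summed to 73.0 to 300.5 scaled TPM in OE, 24.6 and 54.8 in KO and 42.7 to 112 in Ctrl. In OE against KO, 4 of the 8 tested were under an unadjusted p of 0.05 and higher in OE (limma), where 2.95% of all genes were under it in either direction, and none passed after adjustment. Pan-epithelial markers, which belong to the labelled tissue, were abundant in every library. Led by Krt19, Krt8, Cldn7 and Epcam, they summed to 3865 to 6173 in OE, 4606 and 5332 in KO and 3337 to 5591 in Ctrl. Markers of crypt cells, led by Defa24, Lyz1, Olfm4 and Mmp7, summed to 2373 to 7267 in OE, 1874 and 4907 in KO and 291 to 4879 in Ctrl, the lowest being Ctrl 2. All 9 were positive in OE against Ctrl, with a median of 0.67 on the log2(scaled TPM + 1) scale, and in KO against Ctrl, with a median of 0.80. Villus enterocyte markers, led by Anpep, Fabp2, Apoa1 and Fabp6, summed to 1318 to 9061 in OE, 1926 and 2248 in KO and 2040 to 13007 in Ctrl, so these markers differed widely between crypt preparations of one group. Of these 8, 7 were negative in OE against Ctrl, with a median of -0.57, and 7 in KO against Ctrl, with a median of -1.07. The enterocyte sum of 13007 was that of Ctrl 2, against 3487 in Ctrl 1 and 2040 in Ctrl 3. For the crypt sum, Ctrl 1 had 4879 and Ctrl 3 had 2620. Both of these libraries lay within the OE range for both sums, and the medians of these markers without Ctrl 2 are not given. No crypt or enterocyte marker passed in limma or was under an unadjusted p of 0.05. The part of both cell groups in the class II levels was not tested.

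The factors that bind class II promoters with CIITA showed no common direction. Of 7 tested, 4 were higher in KO than in Ctrl and 3 were higher in OE than in Ctrl, with medians of 0.039 and -0.059 on the log2(scaled TPM + 1) scale. The NF-Y subunits Nfyc, Nfyb and Nfya, which bind the Y box, averaged 25.6, 9.99 and 9.04 scaled TPM over all libraries, and Creb1, a CRE-binding factor, averaged 5.41. In OE against Ctrl their differences were -0.21, 0.50, -0.41 and -0.059, and in KO against Ctrl they were -0.018, 0.22, -0.32 and 0.34. Rfxap, a subunit of the RFX complex on the X box, was higher without overlap in both comparisons, by 0.47 in OE and by 0.82 in KO, and was named after its values were seen. It was under 1 deposited TPM in every Ctrl library, so the filter favoured a positive difference for it. None of the 7 passed (limma, adjusted p = 0.755 or more).

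Proteases of the endosome that degrade the invariant chain and antigens were well expressed. Ctsd, Ctss and Ctsb, the lysosomal cathepsins D, S and B, averaged 71.1, 46.4 and 43.5 scaled TPM, and March8, a ubiquitin ligase that removes class II from the surface, averaged 33.2. Of the 7 tested in this list, 4 were higher in OE than in Ctrl and 3 were higher in KO than in Ctrl, with medians of 0.026 and -0.045, and none passed in limma. Ctss, the protease for the last cleavage of the invariant chain, differed by 0.026 in OE against Ctrl (95% interval -0.86 to 0.91) and by -0.072 in KO against Ctrl (-1.18 to 1.03). March8 differed by -0.63 in OE against Ctrl (-1.17 to -0.09), with an unadjusted p of 0.0260 and an adjusted p of 0.755 in limma. Lgmn, an asparaginyl endopeptidase picked out with its values known, was at 7.13 to 15.1 scaled TPM in OE, at 9.92 and 11.0 in KO and at 4.27 to 5.86 in Ctrl. Its differences were 0.87 in OE and 0.91 in KO against Ctrl, without overlap in either (limma, adjusted p = 0.755 and 0.943). March1 was below the filter.

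Interferon gamma, the main inducer of Ciita outside professional antigen-presenting cells, was barely detected, with Ifng at 0 to 0.652 scaled TPM in OE, at 0.159 and 0.162 in KO and at 0 to 0.222 in Ctrl, below the filter. Its receptor and signalling genes were expressed, with Ifngr1 averaging 144, Irf1 46.5, Ifngr2 41.9 and Jak1 26.2 scaled TPM. Of the 8 tested, 3 were higher in OE than in Ctrl and none was higher in KO than in Ctrl, with medians of -0.065 and -0.13, and none passed in limma or was under an unadjusted p of 0.05. Irf1, a target and mediator of the pathway, differed by 0.13 in OE against Ctrl (95% interval -0.41 to 0.67) and by -0.15 in KO against Ctrl (-0.82 to 0.53).

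MHC class I genes, which present peptides from the cytosol, lay on both sides of 0 in OE against Ctrl and in KO against Ctrl. Of 11 tested, 5 were higher in OE than in Ctrl, with a median of -0.039, and 3 were higher in KO than in Ctrl, with a median of -0.35. In OE against KO 10 of 11 were positive, with a median of 0.49, beside 6 of 7 class II members with a median of 0.43. B2m, H2-K1, H2-D1 and Tapbp averaged 568, 545, 354 and 134 scaled TPM, and their differences in OE against Ctrl were -0.29, -0.25, 0.19 and -0.20. Nlrc5, the class I counterpart of Ciita, was at 2.26 to 8.62 scaled TPM in OE, at 0.672 and 5.28 in KO and at 0.168 to 1.46 in Ctrl, without overlap in OE against Ctrl. It differed there by 1.49 (95% interval 0.39 to 2.59), with an unadjusted p of 0.0129 and an adjusted p of 0.755 in limma, and was named after its values were seen. Costimulatory genes were low, with Icosl, Cd274, Cd40 and Cd86 averaging 2.41, 1.54, 0.920 and 0.805 scaled TPM. All 4 tested were positive in OE against Ctrl and in KO against Ctrl, with medians of 0.43 and 0.59 and none passing in limma. Cd40 and Cd86 were under 1 deposited TPM in every Ctrl library, so the filter favoured a positive difference for them.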

How the data were processed

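Per the file headers of 9 libraries, the deposited values are TPM, here of 28987 Ensembl IDs. The header of Ctrl 1 names no unit, which was taken from its values. The submitters' processing notes name TopHat, Cufflinks and mm10, and which step gave the TPM is not given in the sources used here. Symbols and coordinates came from GENCODE M21 (GRCm38). TPM were divided by median-ratio factors over the 11146 genes above 0 in every library. The 13056 genes with at least 1 TPM in at least 2 libraries were kept, all 7 members among them. Differences of log2(scaled TPM + 1), computed from the deposited TPM, were tested in limma 3.58.1 (R 4.3.3) with an intensity trend and 3 group means over all 10 libraries, with Benjamini-Hochberg adjustment over all genes tested and a threshold of 0.05. The pseudocount understates changes of low genes. The fit was tested on simulated data. Correlations used permutation tests (Python 3.11.15, scipy 1.17.1).

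The members and the gene lists were chosen with earlier results of these data known. The rule for naming genes took all members, Stat5a and Stat5b, the 4 most abundant genes of each list, B cell and dendritic cell markers and the 5 genes most like the members. Some genes that this rule takes are not reported here. The fit was repeated on unscaled and on quantile-normalized values, with a pseudocount of 0.1 or 5, without a filter and with one of 5 TPM. It was also repeated on the compared groups alone, as a robust fit, with library weights, with a replicate block and without each library in turn. Leaving out the libraries with H2-Ea-ps, or those low in Y-linked transcripts, was chosen after seeing the data. Psmb9 was not analysed here.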

Additional observations from a re-analysis of the deposited data

Results flagged for a closer look

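In 4 of 14 genes screened, 1 OE library stood apart from the other 4. The measure was its gap to the nearest other library as a share of the range of the group. The critical value for 5 libraries was 0.71, which chance exceeds in about 1 of 20 groups of normally distributed values. The shares were taken on scaled TPM without logs, which need not be normally distributed, so that rate may not hold here. On the log2(scaled TPM + 1) scale used elsewhere, the share of a high library is smaller. For H2-DMb1 the library labelled OE 1 was highest, at 24.9 scaled TPM against 14.1 in the next, with a share of 0.739. OE 4 was the highest library for the other 3 genes. For H2-DMb2 it had 4.57 scaled TPM against 2.11 in the next, with a share of 0.834. For H2-Ob it had 21.5 against 5.19, with a share of 0.813. For H2-Eb2 it had 5.14 against 1.44, with a share of 0.747. OE 4 also had the highest B cell marker sum, 119 scaled TPM, and the part of these cells in the 3 values was not tested.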

How the results depend on the processing

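No member passed under any alternative run (smallest limma adjusted p = 0.433), and depth is unknown, so the precision of low genes such as Ciita cannot be given. The 3 comparisons called 0 genes each, also with robust and weighted fits. KO against Ctrl and OE against KO had 5 and 7 calls without the filter, KO against Ctrl and OE against Ctrl 1 each with only the groups compared, and OE against Ctrl and OE against KO 1 each without the libraries low in Y-linked transcripts. Leaving out 1 library gave 0 to 2 calls in KO against Ctrl, 0 to 0 in OE against Ctrl and 0 to 2 in OE against KO (2 without KO 1 in both comparisons, 1 in OE against KO without the library labelled OE 1 or OE 3). The replicate block gave 3 calls in OE against Ctrl, but libraries with the same number did not vary together (r of -0.177 to 0.063), so they share only a number. Of 6 relations with H2-Ab1, 3 passed, against 5 as deposited, 1 with quantile normalization and 1 to 5 without 1 library. As deposited, the median difference of all genes was 0.36 in OE against Ctrl and 0.38 in KO against Ctrl, against 0.021 and 0.038 after scaling.

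These log2 differences changed sign. In KO against Ctrl, values as deposited gave 0.27 for H2-Eb1, 0.32 for H2-DMa and 0.33 for Ciita. Library weights gave -0.22 for H2-Aa, -0.066 for H2-Ab1, 0.0097 for H2-DMa and 0.0080 for Ciita, the replicate block gave -0.19 for H2-Aa, -0.21 for H2-Ab1 and -0.096 for Cd74, and leaving out the libraries low in Y-linked transcripts gave -0.068, -0.11, -0.050 and 0.00071 for H2-Aa, H2-Ab1, Cd74 and Ciita. In OE against Ctrl, library weights gave -0.30 for H2-Aa and -0.11 for H2-Ab1. In OE against KO, H2-Ab1 was at -0.023 with quantile normalization and -0.047 with library weights, and H2-Aa at 0.41 with the replicate block, 0.40 without the libraries with H2-Ea-ps and 0.54 without those low in Y-linked transcripts. The correlation of Ciita with H2-Ab1 was 0.42 as deposited, 0.00060 with quantile normalization and -0.23 to 0.26 without 1 library. Leaving out 1 library in KO against Ctrl gave -0.60 to 0.90 for H2-Aa, -0.58 to 0.78 for H2-Ab1, -0.54 to 0.045 for H2-Eb1, -0.69 to 0.30 for H2-DMa, -0.45 to 0.46 for Cd74 and -0.098 to 0.041 for Ciita. In OE against Ctrl it gave -0.21 to 0.47 for H2-Aa and -0.21 to 0.34 for H2-Ab1, and in OE against KO -0.75 to 0.75 for H2-Aa, -0.62 to 0.74 for H2-Ab1 and -0.059 to 0.93 for H2-DMa. The causes were not tested.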

Other observations

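H2-Ea-ps was not alone in marking OE 2 and OE 3. Of all IDs, 5 had at least 5 scaled TPM in both of these libraries and less than 1 in 8 of that level in every other one, a rule set after H2-Ea-ps had been seen. Besides H2-Ea-ps they were Gm10260, a predicted protein-coding gene on chromosome 13, the processed pseudogenes Gm13841 on chromosome 5 and Gm11868 on chromosome 4, and Bach2os, an antisense gene on chromosome 4. Gm10260 was at 215 and 145 scaled TPM in OE 2 and OE 3 and at 0 to 0.655 elsewhere. Gm13841 was at 17.4 and 12.8 in these libraries and listed at 0 in all others. Gm11868 was at 7.85 and 6.92, against at most 0.0536, and Bach2os at 8.11 and 6.57, against at most 0.571. Reads of pseudogenes can be shared with their parent genes.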
